A study of Homo sapiens with 4 samples.

Results

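The H3K27ac peaks around *MYCN* on chromosome 2p24 were described in SK-N-BE(2)C cells, an established neuroblastoma (NB) cell line with amplified *MYCN*. Peaks of both deposited lists that overlapped the bases from 40.5 kb before to 509.4 kb after the *MYCN* start site (GRCh38) were taken, which gave 228 of the 63699 peaks of control cells (sgCtrl) and 234 of the 50119 peaks of *SNHG1*-depletion cells (sgSNHG1). The stretch was chosen by its measured density of peaks in these same lists, so the number of peaks in it and their height over the rest of the genome are given as a description only. Both groups carried Cas9 and reporter plasmids, passed puromycin selection and were isolated by fluorescence sorting. sgCtrl, labelled wildtype, received a non-targeting guide RNA, and sgSNHG1, labelled *SNHG1* knockout, received guide RNAs against the long non-coding RNA (lncRNA) gene *SNHG1*. Each group had 2 ChIP-seq samples, which the authors combined before peaks were called, so 1 list per group was compared and the spread between samples is unknown. The control cells were a single clone, and the clone behind the sgSNHG1 samples is not named in the sources used here. A difference between the lists can therefore not be told apart from a difference between clones.

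*MYCN* encodes a basic helix-loop-helix transcription factor that binds E-box sequences and drives growth in high-risk NB. In amplified tumors the gene is copied together with a variable stretch of flanking DNA, and the copies can carry enhancers that act on *MYCN* in sympathetic nerve precursors. Acetylation of histone H3 at lysine 27 (H3K27ac) marks active promoters and enhancers. In ChIP-seq the fragments over such a site grow both with the acetylation of each copy and with the number of copies, and the 2 cannot be told apart from fragment numbers alone. The fold enrichment of a peak divides the fragments at its summit by the local background around it, in which the number of copies is also counted. No input library is named, so this background can also hold fragments of the peak itself and of its neighbors.

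The sequences below were read from the GRCh38 reference and show the elements on which the results turn, which are the bases before the *MYCN* start (RefSeq promoter table), the highest peak, the element of next highest fold enrichment and the pairs of largest rise and largest fall in fold enrichment. Except for the first, each is the 300 bases around a sgCtrl summit, named by its distance from the *MYCN* start. Capitals mark matches to any of 7 motifs on either strand (the E-box CACGTG, the neural E-box CATCTG, the GATA motif AGATAA, the homeodomain motifs TAATTA as well as CTAATG, the T-box motif AGGTGTGA and the AP-1 motif TGACTCA), and a line without capitals held none of them.
*MYCN* upstream, chr2:15940300-15940549, plus strand: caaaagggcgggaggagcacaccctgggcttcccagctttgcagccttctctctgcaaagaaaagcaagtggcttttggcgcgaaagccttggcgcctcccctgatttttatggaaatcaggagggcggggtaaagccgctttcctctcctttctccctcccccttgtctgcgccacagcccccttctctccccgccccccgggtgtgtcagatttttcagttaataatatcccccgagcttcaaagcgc
*MYCN* peak summit, chr2:15942438-15942737, plus strand: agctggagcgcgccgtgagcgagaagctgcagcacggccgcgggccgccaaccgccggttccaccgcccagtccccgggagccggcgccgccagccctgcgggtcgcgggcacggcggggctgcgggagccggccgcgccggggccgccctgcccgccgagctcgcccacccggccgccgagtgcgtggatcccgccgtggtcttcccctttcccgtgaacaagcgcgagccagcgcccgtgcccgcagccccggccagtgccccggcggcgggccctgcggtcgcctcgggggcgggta
Element at 154.2 kb, chr2:16094617-16094916, plus strand: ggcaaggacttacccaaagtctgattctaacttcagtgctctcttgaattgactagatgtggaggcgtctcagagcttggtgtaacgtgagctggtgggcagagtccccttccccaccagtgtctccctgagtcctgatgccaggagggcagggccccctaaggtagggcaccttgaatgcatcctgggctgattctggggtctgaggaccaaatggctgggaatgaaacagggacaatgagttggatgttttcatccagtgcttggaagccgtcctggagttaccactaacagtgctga
Element at 261.9 kb, chr2:16202334-16202633, plus strand: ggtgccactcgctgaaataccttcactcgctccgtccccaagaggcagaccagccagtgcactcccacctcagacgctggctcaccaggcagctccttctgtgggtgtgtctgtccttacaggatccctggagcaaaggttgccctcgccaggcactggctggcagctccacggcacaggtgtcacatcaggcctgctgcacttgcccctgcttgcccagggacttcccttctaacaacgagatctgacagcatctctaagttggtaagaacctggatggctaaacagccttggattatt
Element at 362.9 kb, chr2:16303262-16303561, plus strand: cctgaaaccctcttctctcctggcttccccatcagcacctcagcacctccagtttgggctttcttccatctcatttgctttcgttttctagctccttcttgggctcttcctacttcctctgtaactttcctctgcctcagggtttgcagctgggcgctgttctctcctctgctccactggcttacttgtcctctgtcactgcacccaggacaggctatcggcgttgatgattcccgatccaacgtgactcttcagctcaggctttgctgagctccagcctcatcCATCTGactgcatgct
All 300 bases around the summit of the *MYCN* peak are annotated as coding sequence, and 81.0% of them are G or C. No word of 36 bases from the *MYCN* lines or from the elements at 154.2, 261.9 and 362.9 kb occurred again on chromosome 2.

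The part with a high local background had edges at the same peaks in both lists. The local background is the number of fragments that the peak caller expected at a summit, and it was recovered together with the summit pileup, which counts fragments at the summit. Just outside the rule on the left, the last sgCtrl peak (chr2:15890605-15891049) had a local background of 11.8 fragments, and the last sgSNHG1 peak (chr2:15891512-15891730) also had 11.8. Just inside it, 3 sgCtrl and 2 sgSNHG1 peaks still lay on a low background, among them chr2:15914191-15914503 with 14.6 fragments in sgCtrl and chr2:15914032-15914657 with 13.5 in sgSNHG1. At chr2:15936435-15936656, which lies 4.0 kb before the *MYCN* start, the local background was 984 fragments in sgCtrl, and at the matching sgSNHG1 peak it was 807. The last peak of the stretch ended at base 16420744 in both lists, with a background of 358 and 304 fragments. The next peaks began at bases 16507816 and 16508031, with a background of 6.87 and 6.55 fragments. No peak lay between, so where the background fell on this side was not measured. The high background thus covered 225 sgCtrl and 232 sgSNHG1 peaks over 484 kb in each list. Of the neighboring protein-coding genes, *DDX1* and *NBAS* on the left and *CYRIA* on the right lay outside it.

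Within this stretch the median local background was 1211 fragments in sgCtrl, against 12.9 over peaks elsewhere, and 931 in sgSNHG1, against 12. The median summit pileup was 2304 fragments in sgCtrl and 1622 in sgSNHG1, against 55 and 52 elsewhere. All 10 of the highest pileups of each list lay here, as did 99 of the highest 100 in sgCtrl and 95 in sgSNHG1. Fold enrichment showed the opposite order, with a median of 1.92 in sgCtrl and 1.76 in sgSNHG1 against 3.76 and 3.89 elsewhere. At the most frequent local background of each list (4.89 fragments in sgCtrl and 4.66 in sgSNHG1), no peak with a fold enrichment under 3.39 and 3.36 was listed. In the stretch, only 10 of 225 peaks in sgCtrl and 5 of 232 in sgSNHG1 reached those values, so most of its peaks lay below the lowest fold enrichment listed at that background. The peaks covered 33.9% of the stretch in sgCtrl and 33.2% in sgSNHG1, and 23.6% and 21.1% of them were longer than 1 kb, against 8.01% and 7.60% elsewhere.

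**Figure D1:**
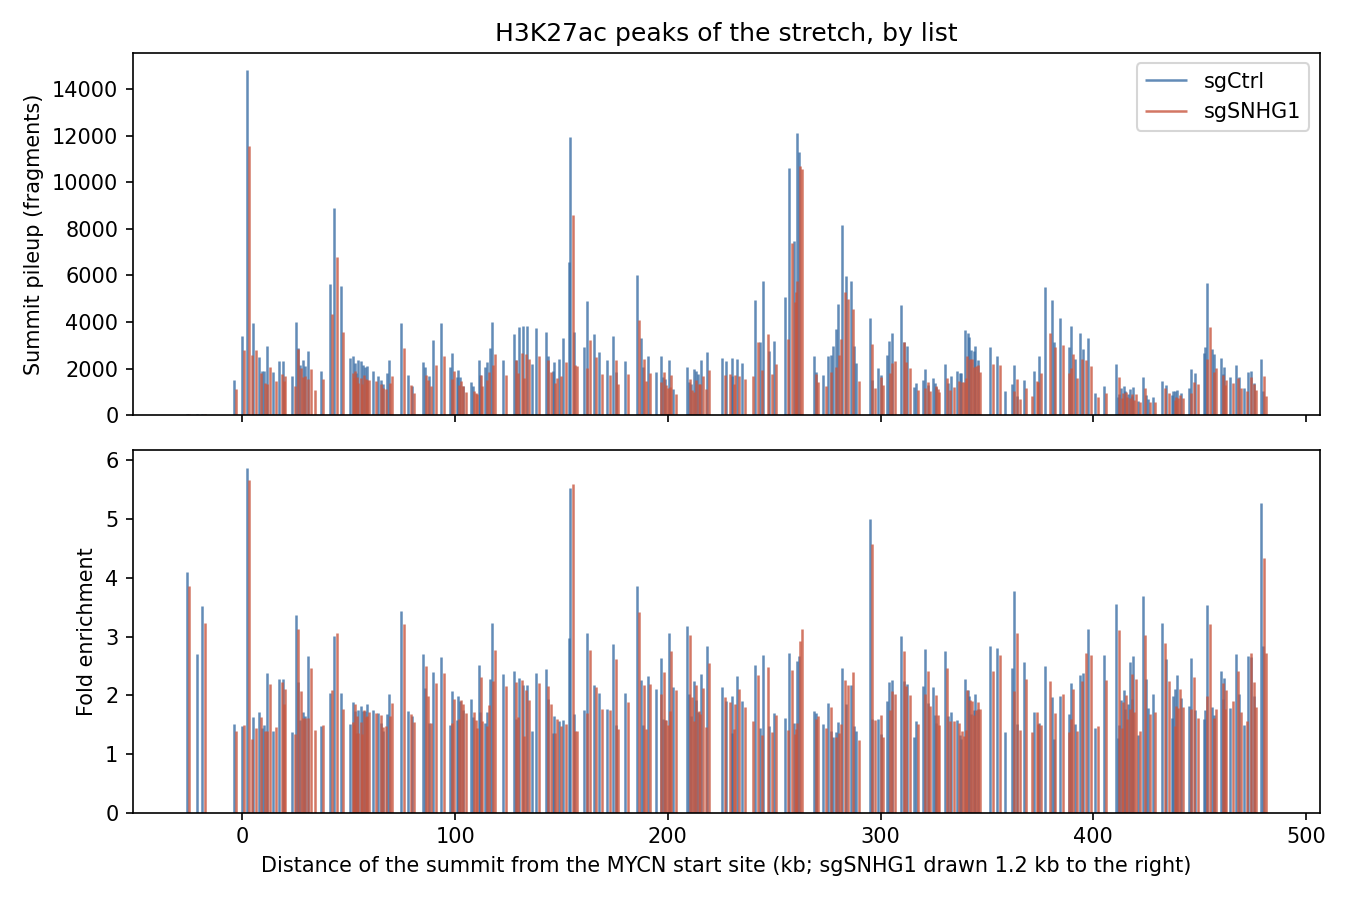
Summit pileup (fragments, upper panel) and fold enrichment (lower panel) of every peak of the stretch against its distance from the *MYCN* start site (kb), with a line per peak in each list. The highest lines stand at *MYCN* (14812 fragments in sgCtrl and 11551 in sgSNHG1), at 154.2 kb and near 260 kb.

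The *MYCN* peak had the highest pileup of both lists. It spanned chr2:15940580-15943304 in sgCtrl, where 14812 fragments gave a −log10 p of 6060 and an enrichment of 5.88-fold. In sgSNHG1 it spanned chr2:15940569-15943346, where 11551 fragments gave a −log10 p of 4581 and an enrichment of 5.67-fold. Its summit was the same base in both lists, 2038 bp after the *MYCN* start. The pileup fell by 0.36 on the log2 scale (95% interval from counting error −0.39 to −0.32), whereas the log2 ratio of the fold enrichments was −0.05. The start site itself lay in a gap of 292 bp in sgCtrl and 271 bp in sgSNHG1, between this peak and an upstream peak of fold enrichment 1.48 and 1.5. In both lists the gap held all 250 bases of the upstream sequence printed above. The same peak covered the start of *MYCNOS*, a lncRNA transcribed antisense to *MYCN*, so the mark cannot be assigned to either gene.

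GENCODE release 44 places 16 genes in the stretch, of which 1 is protein-coding (*MYCN*) and 11 are lncRNAs. A peak lay within 1 kb of a start site for 15 of them in sgCtrl and 14 in sgSNHG1. The gene that differed was *MYCNUT*, a lncRNA upstream of *MYCN* on the low background, whose sgCtrl peak (chr2:15919238-15919477) had a fold enrichment of 2.71 and a pileup of 47 fragments. In the high-background part the median gap between peaks was 897 bp in sgCtrl and 836 bp in sgSNHG1. Most positions there would thus lie within 1 kb of a peak, and no share over all genes was set beside these counts. *GACAT3*, a lncRNA gene 73.4 kb after the *MYCN* start, had 8 peaks within 1 kb of its annotated start sites in each list. The strongest of them, chr2:16012466-16015710 in sgCtrl, had a pileup of 3955 fragments there and 2869 in sgSNHG1. Its fold enrichment was 3.43 in sgCtrl and 3.22 in sgSNHG1. For comparison, the start of *DDX1*, an RNA helicase gene that lies outside the high background, had a peak of 137 fragments in sgCtrl and 171 in sgSNHG1, with fold enrichments of 10.5 and 10.2. The start of *NBAS* had 27 and 48 fragments, and that of *CYRIA* had 36 fragments in sgCtrl and no peak in sgSNHG1.

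Peaks overlapping between the lists merged into 233 elements with a high background, of which 215 held peaks of both lists, 7 of sgCtrl only and 11 of sgSNHG1 only. Each element was counted in a single class. Of all elements, 31 lay within 1 kb of a start site, 14 of the others overlapped an exon, 113 of the rest an intron and 75 (32.2%) lay between annotated genes. After *MYCN*, the highest elements were at chr2:16200804-16201687, with a pileup of 12102 fragments in sgCtrl and 10697 in sgSNHG1, and at chr2:16093186-16096248, with 11955 and 8602. The latter lies in an intron of the lncRNA ENSG00000236989 and had the next highest fold enrichment after *MYCN*, at 5.52 in sgCtrl and 5.59 in sgSNHG1. The element at chr2:16202226-16205074 covers the start of the lncRNA ENSG00000226041 and reached 11299 and 10569 fragments. The remaining 6 of the 10 highest elements had between 5974 and 10625 fragments in sgCtrl. Of these 6, the elements at 43.6, 184.9 and 256.7 kb lay between genes.

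Most elements were found in both lists. Of the sgCtrl peaks of the stretch, 8 of 228 overlapped no sgSNHG1 peak (3.51%), against 38.5% of all sgCtrl peaks. Of the sgSNHG1 peaks, 11 of 234 overlapped no sgCtrl peak (4.70%), against 20.8% of all sgSNHG1 peaks. The shares found in both lists were 96.5% (95% Wilson interval 93.2% to 98.2%) and 95.3% (91.8% to 97.4%), where the intervals cover counting error over peaks only. Peaks of higher pileup are more readily listed, and the part of pileup in these shares was not tested. The bases covered in both lists made up 90.5% of those covered in either. Of the 215 pairs of matching peaks, 91 had their summit at the same base (42.3%), against 2.04% of pairs outside the stretch, and the median distance between summits was 4 bp against 50 bp. Pileups were far lower outside the stretch, and the part of pileup in these distances was not tested either.

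Most peaks found in a single list had a fold enrichment below the median of the stretch. The 8 sgCtrl peaks had fold enrichments of 1.26 to 2.71 and the 11 sgSNHG1 peaks 1.25 to 1.74. Of these, 5 and 10 lay less than 1 kb from a peak of the other list. The strongest sgCtrl-only peak was chr2:16365502-16365713, with a pileup of 880 fragments, an enrichment of 2.28-fold and a −log10 p of 103. The strongest sgSNHG1-only peak was chr2:16199387-16199622, with 5302 fragments, an enrichment of 1.43-fold and a −log10 p of 131.5. The next 4 sgCtrl-only peaks lay at 287.4, 276.8, 136.3 and 381.5 kb from the *MYCN* start, with fold enrichments of 1.47, 1.38, 1.39 and 1.26. The next 4 sgSNHG1-only peaks lay at 258.6, 199.9, 372.9 and 338.9 kb, with fold enrichments of 1.35, 1.74, 1.51 and 1.41. The sequence around the summit of the strongest sgCtrl-only peak shows a site listed in that list alone.
sgCtrl-only peak at 425.0 kb, chr2:16365426-16365725, plus strand: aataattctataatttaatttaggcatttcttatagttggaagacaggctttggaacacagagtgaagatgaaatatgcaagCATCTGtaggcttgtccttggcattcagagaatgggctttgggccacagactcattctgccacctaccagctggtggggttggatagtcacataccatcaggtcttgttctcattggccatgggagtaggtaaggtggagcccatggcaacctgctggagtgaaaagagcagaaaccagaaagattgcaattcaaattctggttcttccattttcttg
None of its words of 36 bases occurred again on chromosome 2.

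In every one of the 215 pairs, the summit pileup was lower in sgSNHG1 than in sgCtrl, as it was in 66.4% of all pairs. The median log2 ratio was −0.45 in the stretch, with a range of −0.76 to −0.10, against −0.20 over all 38609 pairs. The local background was also lower in all 215 pairs, with a median log2 ratio of −0.38 against −0.13 over all pairs, where 72.0% were lower. For scale, the most frequent local background of the lists, which follows depth, had a log2 ratio of −0.07. Relative to the median of all pairs, the median log2 ratio of the stretch was −0.25 for the pileups and −0.25 for the backgrounds. Elsewhere, the median pileup ratio was −0.15 in pairs with a background under 10 fragments and −0.19 from 10 to 30. It was −0.33 from 30 to 60 and −0.28 at 60 or more. Relative to the pairs elsewhere of 60 or more, the pileup value of the stretch was −0.17. The counting error of the log2 ratio of a pair was 0.05 (median SE). Its interval lay below the median of all pairs for 188 pairs and above it for 1. No share over all pairs was set beside these counts, and pileups elsewhere were far lower, so the counts describe the stretch only. Summits and background fell together, but the background can hold fragments of the summits, so these falls need not be separate measurements. A change in the number of copies cannot be told apart here from a change in acetylation per copy.

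**Figure D2:**
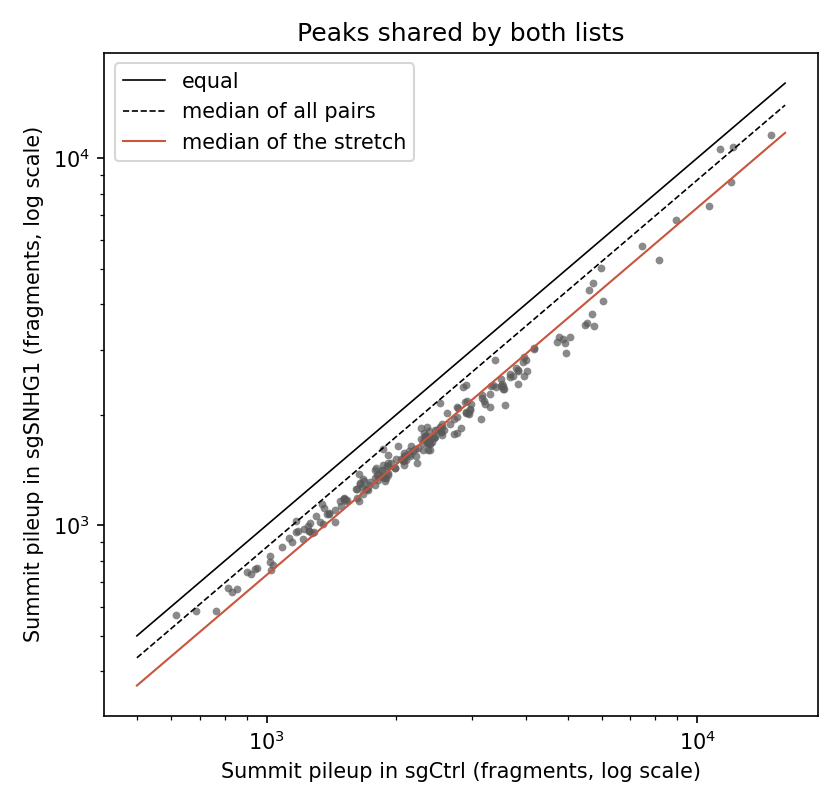
Summit pileup in sgSNHG1 against sgCtrl (fragments, log scales) for the 215 pairs of the stretch, with lines for equal pileups, for the median ratio of all pairs and for that of the stretch. All points lie below the line of equal pileups.

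Fold enrichment, in which a fall of copies or acetylation shared by summit and local background cancels, differed less between the lists. Its median log2 ratio was −0.08 in the stretch and −0.03 over all pairs. Elsewhere the median was −0.095 in pairs with a background under 10 fragments and between −0.013 and 0.007 at the higher levels. Fold enrichment was lower in sgSNHG1 in 182 pairs of the stretch (84.7%), against 55.5% of all pairs, and higher in 33. None of the 215 pairs changed by 1.5-fold or more in either direction. Of all pairs, 1.25% were higher by that much in sgSNHG1 and 2.69% were lower. A pair needs a peak in both lists, and the lowest fold enrichment of the stretch was 1.243 in sgSNHG1. Low sgCtrl peaks could thus not fall by 1.5-fold and still be paired. The sgCtrl median was 1.92 here and 3.76 elsewhere, and the part of this limit was not tested. Pileups of the stretch went from 571 to 14812 fragments, which keeps counting error low. The SD of the log2 ratio of fold enrichments was 0.09 in the stretch against 0.27 over all pairs.

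Of the 5 largest rises in fold enrichment, those at 260.9 and 261.9 kb adjoined each other and the other 3 lay apart. The sgCtrl peak chr2:16202271-16205074 at the start of ENSG00000226041 went from a fold enrichment of 2.66 to 3.13 in sgSNHG1 (log2 ratio 0.24). Its pileup was 11299 and 10569 fragments, the smallest fall of the 215 pairs at −0.10 (95% interval −0.14 to −0.06). It was the only pair of the stretch whose interval lay above the median of all pairs. The adjoining peak chr2:16200812-16201657 went from 2.58 to 2.92, with pileups of 12102 and 10697. A little further left, chr2:16196347-16198058 went the other way, from 2.72 to 2.42 and from 10625 to 7406 fragments (log2 ratio −0.52). A similar contrast was seen at the start of the lncRNA ENSG00000228876. There chr2:16223785-16226140 rose from 1.85 to 2.17, with pileups of 5974 and 5005, beside chr2:16221118-16223298, which fell from 2.47 to 2.25, with pileups of 8161 and 5273. The summits of the rising pair lay at different bases, 16224476 in sgCtrl and 16224073 in sgSNHG1. On its other side, chr2:16226435-16226963 also rose, from 2.17 to 2.40. The other 2 of the 5 largest rises were at 395.3 kb (2.39 to 2.72) and 452.4 kb (1.74 to 1.98).

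The 5 largest falls lay at 156.1 kb and toward the right end of the stretch. At 362.9 kb, near the start of the lncRNA ENSG00000285354, fold enrichment fell from 3.77 to 3.07 and the pileup from 2151 to 1546 fragments. At 423.2 kb it fell from 3.69 to 3.03, at 478.9 kb from 5.27 to 4.34 and at 474.1 kb from 2.65 to 2.22, all in introns of the lncRNA ENSG00000224400. The peak at 478.9 kb had the third highest fold enrichment of the sgCtrl peaks of the stretch. At 156.1 kb, beside the element at 154.2 kb, the pileup fell from 3579 to 2120 fragments, the largest fall of the 215 pairs (log2 ratio −0.76, 95% interval −0.83 to −0.68). The main peak of that element had 11955 and 8602 fragments and kept a fold enrichment of 5.52 and 5.59.

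The fall was not even along the stretch. Between 400 and 450 kb after the *MYCN* start, where the median local background of sgCtrl was lowest at 488 fragments, the median log2 ratio of the background was −0.20 over 25 pairs. Between 350 and 400 kb, with 1197 fragments, it was −0.45 over 17 pairs. Grouped by level, the 31 pairs with a background under 600 fragments had a median log2 ratio of the background of −0.20, the 118 pairs from 600 to 1200 had −0.36, and the 66 pairs of 1200 or more had −0.45. The rank correlation between the level and the change was −0.84 over the 215 pairs, which share both libraries and overlapping windows. The part between 400 and 450 kb had both the lowest background and the smallest fall, and level and position were not separated. The order by level broke at the top, since the peaks of the highest background, near 260 kb, had ratios of −0.33 to −0.37. Outside the stretch the change also differed by level, but the largest fall was not at the highest level. The median log2 ratio of the background was −0.07 in 14427 pairs under 10 fragments and −0.19 in 18127 pairs from 10 to 30. It was −0.35 in 5164 pairs from 30 to 60 and −0.30 in 658 pairs of 60 or more. The most frequent background, 4.89 fragments in sgCtrl and 4.66 in sgSNHG1, lies in the lowest group and had the same log2 ratio of −0.07. Its part in the value of that group was not tested.

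The summit windows of the stretch were less rich in G and C than peaks elsewhere, with a median of 52.7% in both lists against 64.0% and 64.3%. The E-box CACGTG was in 12 of 225 sgCtrl windows (5.33%), against 6.48% of 63447 windows elsewhere. CATCTG, an E-box of the kind that neural basic helix-loop-helix factors bind, was in 52 (23.1%, against 17.6%). The GATA-type motif AGATAA was in 18 (8.0%, against 2.52%), the homeodomain motif TAATTA in 6 (2.67%, against 0.629%) and CTAATG in 13 (5.78%, against 2.56%). The T-box motif AGGTGTGA was in 14 (6.22%, against 2.47%) and the AP-1 motif TGACTCA in 21 (9.33%, against 3.03%). In sgSNHG1, CACGTG was in 11 of 232 windows (4.74%, against 6.24% elsewhere), CATCTG in 51 (22%, against 16.3%) and AGATAA in 22 (9.48%, against 2.85%). TAATTA was in 6 of them (2.59%, against 0.752%), CTAATG in 13 (5.6%, against 2.56%), AGGTGTGA in 14 (6.03%, against 2.20%) and TGACTCA in 13 (5.6%, against 2.92%). Base composition moved with these shares, and its part in them was not tested. A match is a description of the letters only.

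Peaks within 1 kb of the start sites of marker genes were counted. Of 10 adrenergic markers, 9 had a peak in sgCtrl and 10 in sgSNHG1, and of 8 mesenchymal markers, 6 had a peak in each list. Markers of both states had peaks and no share over all genes was set beside them, so these counts do not tell the states apart. Of the 3 markers of blood, endothelial and epithelial cells, only *EPCAM* had a peak, in both lists.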

How the data were processed

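H3K27ac ChIP-seq of 2 sgCtrl and 2 sgSNHG1 samples was used. The authors trimmed reads with cutadapt, aligned them to GRCh38 with BWA, merged the 2 samples of each group and ran MACS2 at a p-value of 1e-06, with duplicates kept and no input library named. The deposited lists give a fold enrichment (a ratio of summit to local background), the −log10 p that the authors' peak caller assigned, and the summit position. Depth per sample is unknown.

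Summit pileup and local background were recovered from the deposited fold enrichment and −log10 p, assuming a pseudocount of 1 and a Poisson p. In the stretch, 99.1% of sgCtrl and 99.6% of sgSNHG1 pileups came out whole within 0.05 fragments. Larger pileups come from fewer decimals, hence this tolerance. Over the whole lists, 99.6% did within 0.001. High background meant over 100 fragments. Peaks overlapping by at least 1 bp were paired by nearest summit, each used once. A log2 ratio is sgSNHG1 over sgCtrl. With 1 pooled list per group no test was made, and intervals cover counting error only, with duplicates counted as fragments.

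Genes came from GENCODE release 44. Named were all genes of the stretch, the nearest protein-coding neighbors, peaks within 1 kb of their start sites, the 10 highest elements, the 5 pairs of largest change in fold enrichment each way and the strongest peaks of a single list. *DDX1* values and the pairs beside the largest rises were chosen after their values were seen. The sequences of some elements are not reported here. Members and lists were chosen with earlier results of these data known. The computations were tested on simulated data. Tools were Python 3.11.15, scipy 1.17.1, pandas 2.3.3, numpy 2.4.6 and matplotlib 3.10.9.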

Additional observations from a re-analysis of the deposited data

How the results depend on the processing

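The 8 results were recomputed under 38 alternatives, of which 3 were chosen after seeing the data. In 29 the value stayed within the 95% interval of the reported value, which covers counting error or the spread over peaks, or, for the ratio of peak numbers, within 1.5 times of it. By covered bases, sgSNHG1 held 0.978 times the sgCtrl amount, against 1.03 times by peak number, so the order of the lists reversed. The shares found in both lists moved to 92.5% of sgCtrl and 90.2% of sgSNHG1 peaks with an overlap of 50% of both peaks, and to 93.0% and 90.6% with summits within 250 bp. The median log2 ratio of summit pileup relative to all pairs, −0.25, moved to −0.29 with only peaks of −log10 p of at least 10, to −0.17 relative to pairs elsewhere with a background of 60 or more, and to −0.38 relative to the most frequent background. The log2 ratio at the *MYCN* peak moved from −0.05 by fold enrichment to −0.16 by pileup relative to all pairs. The cause of these moves was not tested. No paired analysis was possible because each list pools both samples of its group, and for the same reason no sample could be left out. Clone and group cannot be told apart, and the depth of each sample is unknown.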

Other observations

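Outside the stretch, the highest local backgrounds were 396 fragments in sgCtrl and 467 in sgSNHG1. Both were among 5 peaks on chromosome 16, from base 46387788 to 46401594 in sgCtrl and from 46387779 to 46401608 in sgSNHG1. At 2 further places, on chromosome 16 from base 34581397 and on chromosome 5 from base 49601226 (sgCtrl), the highest background was 201 and 252 fragments in sgCtrl and 257 and 283 in sgSNHG1. A peak on chromosome 5 from base 34189529 had 207 fragments in sgCtrl, and no sgSNHG1 peak there passed 200. At the first 3 places the highest background was higher in sgSNHG1 than in sgCtrl, whereas the background was lower in sgSNHG1 in all 215 pairs of the *MYCN* stretch. These highest values came from 5, 6 and 3 sgCtrl peaks and from 5, 8 and 4 sgSNHG1 peaks, not from matched pairs. Whether these places can be compared with the stretch was not tested.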
